A study of Homo sapiens with 4 samples.

Results

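AP-1 is a family of dimeric transcription factors, and 8 of its genes were followed here in PC3 cells, an established line of human prostate cancer, after an siRNA against the nuclear receptor COUP-TFII. The genes are the Jun family (JUN, JUNB, JUND), the Fos family (FOS, FOSB, FOSL1, FOSL2) and ATF3. All probe sets that the array's annotation assigned to exactly 1 of these genes were taken, which gave 20 of 54675 probe sets and 8 of 19775 genes. The cells had received control siRNA or COUP-TFII siRNA at 40 nM, and RNA was taken at 48 h. Both groups were the same line in the same medium with 10% serum, and each held 2 arrays. The labels do not say whether the 2 arrays of a group came from separate transfections, so the p-values cover only the spread among these arrays, and that spread may be technical. The labels name the siRNA only by its target, and the level of the targeted transcript was not analysed here.

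Jun proteins can pair with each other, with Fos proteins and with several ATF proteins, whereas Fos proteins need a partner to bind DNA. All use a basic region followed by a leucine zipper, and the dimers bind the TPA response element or the related cyclic AMP response element. FOS, FOSB and JUNB are classical immediate early genes of the serum response, FOSL1 is kept high by MAP kinase signalling in many carcinoma lines, and ATF3 is induced by many kinds of stress. The members differ in action, since JUN and FOSL1 are usually described with proliferation and invasion, and JUNB and JUND often with restraint of growth.

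JUNB, JUND and ATF3 rose after COUP-TFII siRNA, and FOSL1 and JUN fell. JUNB rose 3.20-fold and FOSL1 fell to 0.501 of its control level, while the changes of ATF3, JUN and JUND were smaller. In RNA from whole cultures, a change in how many cells express a gene and a change in RNA per cell cannot be told apart. FOSL2 did not pass the test on the probe set that represents it, and FOS and FOSB lay near the floor of the array in both groups. In all, 5 of the 8 genes had an adjusted p under 0.05 (limma, adjusted by Benjamini-Hochberg over all genes), against 23.0% of the 19775 genes, so change was common on these arrays. The split was 3 higher and 2 lower, where 12.7% of all genes were higher and 10.3% lower. Calls were more common among bright genes. In a fit of only the 9888 brighter genes, 2998 rose and 2322 fell, and of 6 members 3 rose and 2 fell. The median log2 change of the 8 genes was −0.01 and that of all genes was 0.01. Fold changes are on the scale of log2(intensity + 16), which understates those of dim probe sets.

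**Figure D1:**
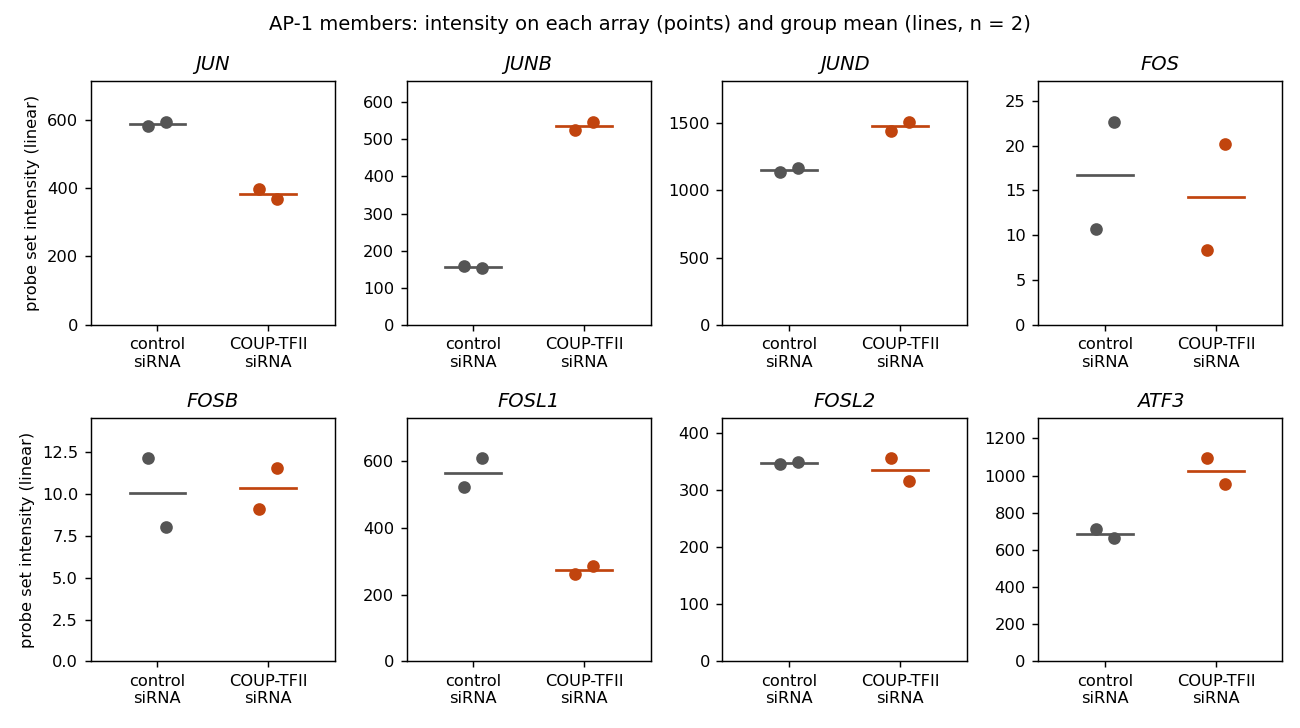
Linear probe set intensity of the 8 AP-1 genes on each array (points, n = 2 per group) with the group mean (line), each panel on its own axis from 0. JUNB, JUND and ATF3 lie higher on both COUP-TFII siRNA arrays and JUN and FOSL1 lower, while the groups overlap for FOS, FOSB and FOSL2.

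Many AP-1 genes are themselves targets of AP-1 and of related ATF and CREB dimers, so the start regions of the 4 genes that moved and had a sequence entry are shown, 1 of which fell and 3 of which rose. RefSeq (GRCh38.p14) gave windows for 7 of the 8 genes, with 2 starts for ATF3 and no entry for FOSL1. The 250 bases before the annotated start are printed in the direction of the gene, for JUN from chr1:58784048-58784297 (minus strand), for JUNB from chr19:12791236-12791485 (plus strand), for JUND from chr19:18281623-18281872 (minus strand) and for the upstream start of ATF3 from chr1:212565157-212565406 (plus strand). Capitals mark matches, on either strand, to the motifs named after the sequences.
JUN: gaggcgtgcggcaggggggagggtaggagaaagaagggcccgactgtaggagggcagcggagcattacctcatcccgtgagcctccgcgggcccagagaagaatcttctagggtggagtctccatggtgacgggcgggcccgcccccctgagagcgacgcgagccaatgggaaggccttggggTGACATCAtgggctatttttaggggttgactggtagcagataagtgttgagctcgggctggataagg
JUNB: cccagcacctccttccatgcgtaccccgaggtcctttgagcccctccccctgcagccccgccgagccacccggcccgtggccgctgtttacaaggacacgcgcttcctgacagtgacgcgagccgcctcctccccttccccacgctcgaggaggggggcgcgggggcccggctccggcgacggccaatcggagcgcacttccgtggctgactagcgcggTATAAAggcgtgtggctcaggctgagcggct
JUND: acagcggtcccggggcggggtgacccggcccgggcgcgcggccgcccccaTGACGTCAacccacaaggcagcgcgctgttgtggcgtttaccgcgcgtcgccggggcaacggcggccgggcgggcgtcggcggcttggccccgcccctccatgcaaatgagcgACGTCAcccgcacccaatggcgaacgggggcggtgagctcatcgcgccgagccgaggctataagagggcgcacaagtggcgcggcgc
ATF3: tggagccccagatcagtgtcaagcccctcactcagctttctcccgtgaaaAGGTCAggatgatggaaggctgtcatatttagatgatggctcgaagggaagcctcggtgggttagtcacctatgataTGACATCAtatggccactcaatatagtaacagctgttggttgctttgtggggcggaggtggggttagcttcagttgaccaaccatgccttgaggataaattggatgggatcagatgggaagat

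The motifs searched were the TPA response element (TGANTCA), the cyclic AMP response element (TGACGTCA) and its core (TGACGT), the Jun/ATF variant element (TGACATCA), the CArG box of serum response factor, the nuclear receptor core motif (AGGTCA) and a TATA box (TATAAA). JUN, which fell, and ATF3, which rose, both held TGACATCA, beginning 67 bases before the start in JUN and 123 bases before it in ATF3. This letter sequence was found in 2.37% of 35116 windows of the same length. JUND held a full TGACGTCA beginning 200 bases before its start, which 1.65% of windows held, and a further core at 87 bases. The full element contains the core on both strands. FOS, FOSB and FOSL2, which are not printed, each held 1 such core, at 64, 60 and 66 bases, against 7.10% of windows. The JUNB window held none of these elements. TATAAA began 31 bases before the start in JUNB, 33 in FOS, 30 in FOSB and 230 in the second ATF3 window, and 10.7% of all windows held it. The nuclear receptor core motif, to which COUP-TF proteins bind in paired form, was present in the ATF3 window at 200 bases and in no other member window, against 12.1% of windows. No TGANTCA and no CArG box lay in any of the 8 member windows, against 6.57% and 1.16% of all windows. Sequence outside these windows, further upstream or past the start, was not searched. Absence from a window therefore does not show that the gene lacks the element. A match is a description and not a binding site.

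Among the Jun genes, JUNB encodes the partner most often set against JUN in growth control. Its only probe set, 201473_at, read 160 and 154 on the control arrays and 525 and 548 on the COUP-TFII siRNA arrays. The groups lay far apart, with SDs of 4.26 and 16.5 around means of 157 and 536 (n = 2). The log2 change was 1.68 (SE 0.09, limma adjusted p = 5.93e-06), and 0.374% of all genes had a larger change in either direction. On the scale of log2(intensity + 16), a fold of at least 2 was reached by 2.63% of all genes and by 1 member, JUNB. FOSL1 was just short on that scale, and with a pseudocount of 1 its log2 fold change was −1.04.

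JUN, the founding member of the family, moved the other way. Its representative probe set, 201466_s_at, read 582 and 595 with control siRNA and 399 and 368 with COUP-TFII siRNA. Both treated arrays were below both control arrays, and the log2 change was −0.60 (SE 0.08, limma adjusted p = 0.0007). JUN has 4 probe sets, and in the fit over all 54613 probe sets, where 12.2% passed (6.51% higher and 5.67% lower), 3 of them passed as lower. The brightest, 201464_x_at, is of a kind open to cross-hybridisation and read 1712 and 1682 against 1355 and 1327, a log2 fold change of −0.34. The probe set 201465_s_at read 191 and 197 against 133 and 136, a log2 fold change of −0.48. In the fit over probe sets these 2 calls were lost whichever array was left out (limma adjusted p = 0.0502 to 0.122 for 201464_x_at and 0.121 to 0.189 for 201465_s_at). That of 201466_s_at was lost without either control array (limma adjusted p = 0.0798 and 0.0889). The dimmest, 213281_at, was lower on both treated arrays at 103 and 107 against 140 and 118, but did not pass (log2 fold change −0.25, 95% confidence interval −0.57 to 0.06).

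JUND, the Jun gene with the steadiest expression in most cells, rose slightly. The probe set 203752_s_at read 1139 and 1164 with control siRNA and 1441 and 1513 with COUP-TFII siRNA. The arrays of each group lay close together and the groups did not overlap, with a log2 change of 0.35 (SE 0.06, limma adjusted p = 0.0023). For JUND, 3 more probe sets were dim and did not pass. Of these, 229117_s_at read 16.6 and 18.7 against 2.77 and 8.63, so the value was lower where the bright probe set was higher (log2 fold change −0.64, 95% confidence interval −1.17 to −0.12, limma adjusted p = 0.128). The probe sets 203751_x_at and 214326_x_at overlapped between groups, between 54.9 and 83.5 for the first and between 9.22 and 17.9 for the second. The call for JUND rests on 1 of its 4 probe sets, and with all 4 averaged the log2 fold change was −0.03 (limma adjusted p = 0.898). It also missed the threshold without control siRNA replicate 1 (limma adjusted p = 0.0608) and without control siRNA replicate 2 (limma adjusted p = 0.0511), and its adjusted p ran from 1.92e-06 to 0.898 across the alternatives.

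The 3 Jun genes thus changed unequally, and differences taken within an array show this without any scaling between arrays. The log2 value of JUNB minus that of JUN was −1.77 and −1.85 on the control arrays and 0.38 and 0.56 on the COUP-TFII siRNA arrays, a shift of 2.28. For JUND minus JUN the values were 0.95 and 0.95 against 1.81 and 1.99, a shift of 0.95. These pairs were chosen after the values were seen and were not tested. Levels of different probe sets cannot be compared with each other, so only the shift between groups is read.

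**Figure D2:**
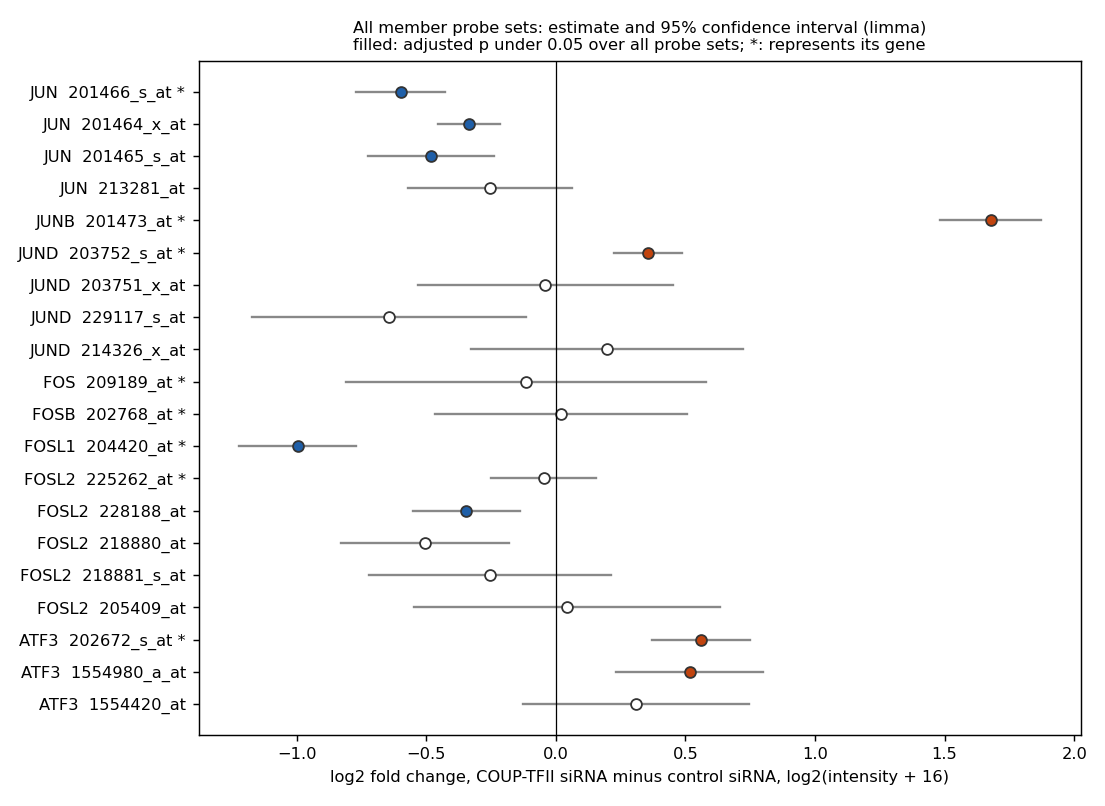
Log2 fold change (COUP-TFII siRNA minus control siRNA) of the 20 member probe sets with 95% confidence intervals from limma; filled points passed an adjusted p of 0.05 over all probe sets and a star marks the probe set that represents its gene. The 4 filled points on the right belong to JUNB, JUND and ATF3, and the 5 on the left to JUN, FOSL1 and FOSL2.

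Among the Fos genes, FOSL1 encodes FRA1, a Fos protein without the strong activation domain of FOS. Its single probe set, 204420_at, read 523 and 609 on the control arrays and 263 and 287 on the COUP-TFII siRNA arrays. The treated values were both below the lower control value, although the control arrays differed from each other by more than the treated ones did (SD 60.6 against 17.0). The log2 change was −0.997 (SE 0.10, limma adjusted p = 0.000136), and 2.65% of all genes had a larger change in either direction. With 1 array left out it lay between −1.10 and −0.89 and passed in the fit over genes, while in the fit over probe sets it missed the threshold without control siRNA replicate 2 (limma adjusted p = 0.0550).

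FOSL2 encodes FRA2, the closest relative of FRA1, and its 5 probe sets disagreed. The representative one, 225262_at, read 345 and 348 with control siRNA and 355 and 315 with COUP-TFII siRNA. The groups overlapped, and the log2 fold change of −0.05 had a 95% confidence interval of −0.26 to 0.16 (limma adjusted p = 0.79). The probe set 228188_at read 356 and 350 against 290 and 260 and passed as lower in the fit over probe sets (log2 fold change −0.35, limma adjusted p = 0.0455). That call was lost whichever array was left out (limma adjusted p = 0.0913 to 0.242). Next to it, 218880_at was lower on both treated arrays, at 71.8 and 76.8 against 111 and 113, and fell just short of the threshold (log2 fold change −0.50, limma adjusted p = 0.0594). The 2 remaining probe sets were dim and did not pass. Of these, 218881_s_at was lower on both treated arrays, at 35.2 and 38.5 against 47.4 and 46.6 (log2 fold change −0.25). For 205409_at the groups overlapped, at 24.8 and 26.0 with control siRNA and 20.3 and 34.2 with COUP-TFII siRNA. With all 5 averaged, the log2 fold change of FOSL2 was −0.22 (limma adjusted p = 0.203). Within arrays, FOSL2 minus FOSL1 was −0.58 and −0.78 in the controls and 0.41 and 0.13 after COUP-TFII siRNA, so on these probe sets the 2 relatives changed unequally, by 0.95 on the log2 scale.

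FOS and FOSB, the Fos genes of the rapid serum response, were close to the floor of the array. FOS (209189_at) read 10.7 and 22.7 in the controls and 8.39 and 20.1 after COUP-TFII siRNA. FOSB (202768_at) read 12.1 and 8.02 in the controls and 9.14 and 11.6 after COUP-TFII siRNA. Between 31.4% and 33.0% of all probe sets on an array lay below 16. The groups overlapped for both genes, and neither passed, with 95% confidence intervals of the log2 fold change from −0.75 to 0.52 for FOS and from −0.48 to 0.52 for FOSB. At this brightness a change within those intervals was not detectable, and the deposited values carry no detection calls. The intervals are on the scale of log2(intensity + 16), so they do not bound the fold change of transcripts this dim. With a pseudocount of 1 the log2 fold change was −0.24 for FOS and 0.05 for FOSB.

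ATF3, an ATF protein that binds DNA with itself or with Jun partners and often represses, rose. Its brightest probe set, 202672_s_at, read 712 and 664 with control siRNA and 1092 and 955 with COUP-TFII siRNA. The groups did not overlap, and the treated arrays spread more widely than the controls (SD 97.4 against 34.2). The log2 change was 0.56 (SE 0.08, limma adjusted p = 0.0011). The probe set 1554980_a_at read 161 and 175 against 273 and 223 and also passed, at a log2 fold change of 0.52. In the fit over probe sets, this call was lost whichever array was left out (limma adjusted p = 0.0733 to 0.247), and that of 202672_s_at was lost in 3 of the 4 cases, all but the one without COUP-TFII siRNA replicate 2 (limma adjusted p = 0.0330 to 0.138). The third, 1554420_at, read 43.1 and 43.4 against 55.1 and 59.7, higher on both treated arrays without passing (log2 fold change 0.31, 95% confidence interval −0.13 to 0.74). At the level of the gene, ATF3 missed the threshold without control siRNA replicate 2. It also missed it with 1 prior variance for all genes (limma adjusted p = 0.0649), the highest of its alternatives. JUND missed it under that setting too (limma adjusted p = 0.0921). The lowest for ATF3 was 4.93e-10 (limma), in the fit of the 9888 brighter genes, where 2998 rose and 2322 fell. With 2 residual degrees of freedom, so low a value rests on variance shared between genes.

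Over all 20 member probe sets, 9 passed, 4 as higher and 5 as lower, against 12.2% of all probe sets (6.51% higher and 5.67% lower). None of the 4 genes with several probe sets had calls in both directions. With 1 array left out, fewer of the member probe sets passed, the fewest without control siRNA replicate 2. The share of all probe sets that passed in those fits is not given here. The groups did not overlap for 5 of the 8 genes, against 57.5% of all genes. They did not overlap for 14 of the 20 probe sets, against 50.4% of all probe sets, so with 2 arrays a group the absence of overlap alone says little. JUN, JUNB and FOSL1 kept direction and call in all 15 alternatives run for single genes. JUND and ATF3 kept their calls in 11 and 13 of them.

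**Figure D3:**
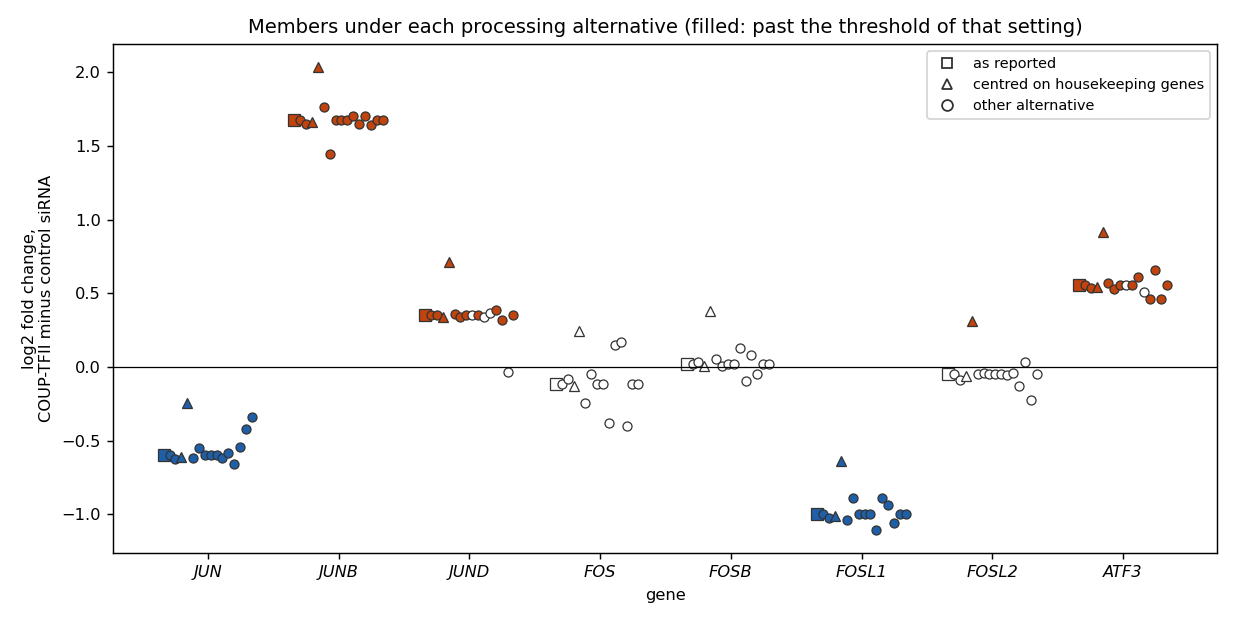
Log2 fold change of the 8 genes as reported (squares), after centring on housekeeping genes (triangles) and under the other alternatives (circles); filled symbols passed the threshold of that setting. JUNB stays at 1.44 or above, FOSL1 at −0.64 or below and JUN at −0.24 or below, while JUND falls to −0.03 when its probe sets are averaged and FOSL2 passes as higher, at 0.31, under 1 centring.

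The scale between arrays was varied in 2 ways by centring on housekeeping genes. Centring on the mean of 11 measured housekeeping genes moved the median log2 change of all genes from 0.01 to 0.0009 and left the member calls as they were. Centring on their median moved it to 0.37, and then 8722 genes were higher and 781 lower (91.8% of calls higher, against 55.3%). The housekeeping genes' own median change then went from −0.05 to 0.31. Under it JUNB was at 2.04, ATF3 at 0.92, JUND at 0.71, JUN at −0.24 and FOSL1 at −0.64, and all 5 still passed. FOSL2 passed as higher, at 0.31 (limma adjusted p = 0.0156), which is below the shift of all genes. The median of the 11 was the value of HPRT1 on both control arrays (2183 and 2185). On both COUP-TFII siRNA arrays it was that of SDHA (1710 and 1688), so this centring set different genes against each other. Of the 11 genes, 2 passed as higher and 2 as lower, among them POLR2A at 1.04 and HPRT1 at −0.77.

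Array medians lay between 31.7 and 32.9. Summed epithelial markers read between 31145 and 31713 on the 4 arrays, but 4 of the 5 passed, with KRT8 higher by 0.16 and KRT18 by 0.13 and with EPCAM at −0.24 and CDH1 at −0.30 on the log2 scale. The 3 measured leukocyte markers summed to between 48.8 and 61.7, and none passed. The 4 endothelial markers summed to 188 on both control arrays and to 282 and 220 after COUP-TFII siRNA, with a median log2 fold change of 0.30, and none passed. Of 5 fibroblast markers, 1 passed as higher, COL1A1, and the sum was between 677 and 776 in the controls and between 1092 and 1096 after COUP-TFII siRNA, while LUM, DCN, COL1A2 and PDGFRB did not pass. Of 3 measured luminal prostate markers, TMPRSS2 passed as higher and the sum was between 176 and 180 in the controls and between 427 and 431 after COUP-TFII siRNA, with KLK3 and KLK2 at 8.56 to 25.9 on every array. The ACTB controls of the array, whose 3′ over 5′ ratio reflects RNA integrity, stood at 1.52 and 1.83 in the controls and 1.42 and 1.46 after COUP-TFII siRNA, and the same ratio of GAPDH at 0.957 and 0.986 against 0.994 and 0.986. The part of these differences in the member changes was not tested.

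The genes whose profiles over the 4 arrays lay nearest to JUNB and to FOSL1 were found by the distance between log2 values, each gene set to its control mean, among 9887 genes above the median brightness. Nearest to JUNB were PODXL, which encodes the surface sialomucin podocalyxin (distance 0.08), ADAMTS15, a secreted metalloprotease gene (0.09), and NUPR1, a stress-induced chromatin factor gene (0.14). PODXL read 1685 and 1703 in the controls and 5354 and 5330 after COUP-TFII siRNA. Nearest to FOSL1 were MX2, an interferon-induced GTPase gene (0.09), KIFC1, a mitotic kinesin gene (0.13), and RNASEH2A, a ribonuclease subunit gene (0.13). KIFC1 read 210 and 243 against 110 and 116, the same higher second control array as FOSL1. With 4 arrays this is a description of likeness in size and spread.

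Other bZIP factors, many of them possible partners of Jun and Fos proteins, were mostly not called. Of 32 measured genes, 4 rose and 4 fell (25%), near the 23.0% of all genes, with a median log2 change of 0.04. Under centring on the housekeeping median, 20 rose and 1 fell, where 8722 of all 19775 genes rose and 781 fell. In the fit of the 9888 brighter genes, where 2998 rose and 2322 fell, the list held 6 rises and 3 falls among 23. The largest fall was that of CREB5, which encodes a CRE-binding protein able to pair with JUN. It read 156 and 138 in the controls and 20.4 and 31.8 after COUP-TFII siRNA, a log2 change of −1.96 (SE 0.20, limma adjusted p = 0.000139), and 2 of its 4 probe sets passed. ATF5, a stress-responsive ATF factor gene, rose from 336 and 381 to 692 and 648, a log2 fold change of 0.87. JDP2, a dimerisation partner and repressor of Jun, read 220 and 212 against 208 and 224, with overlapping groups, and was named after its values were seen. With any 1 array left out, fewer genes of the list passed, and so did fewer of all genes.

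Upstream of AP-1 the list of kinases and SRF regulators held 4 rises and 4 falls among 27 measured genes (29.6%, against 23.0% of all genes; median 0.12). Centred on the housekeeping median, the list held 16 rises and 2 falls, where 8722 of all 19775 genes rose and 781 fell. In the fit of the 9888 brighter genes, where 2998 rose and 2322 fell, it held 4 rises and 7 falls among 23. The JNK pathway phosphorylates JUN, and 2 of its kinase genes fell. MAP2K4, an activator of JNK and p38, read 681 and 561 against 273 and 245, a log2 change of −1.21 (SE 0.11, limma adjusted p = 7.68e-05). It passed on 1 of 2 probe sets. MAPK8, which encodes JNK1, fell by 0.50, on 1 of 5 probe sets. It missed the threshold whichever array was left out (limma adjusted p = 0.0718 to 0.13). MAP2K6, an activator of p38, fell by 0.76. MRTFA, a coactivator of SRF, rose by 0.55 with 1 of 5 probe sets passing, and it was at 0.13 with all averaged (limma adjusted p = 0.624). Its call was kept with COUP-TFII siRNA replicate 1 left out and lost without any other array (limma adjusted p = 0.0469 to 0.0737). Fewer genes of this list, and fewer of all genes, passed whichever array was left out.

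Immediate early genes other than the members moved both ways, 7 higher and 4 lower among 31 (35.5%, against 23.0% of all genes; median 0.08). With the housekeeping median as the centre, 18 were higher and 2 lower, where 8722 of all 19775 genes were higher and 781 lower. In the fit of the 9888 brighter genes, where 2998 rose and 2322 fell, the list held 10 rises and 7 falls among 23. SGK1, a serum and glucocorticoid induced kinase gene, rose from 551 and 639 to 1266 and 1135. ZFP36L1, which encodes an mRNA decay factor, rose by 1.13 and ID1, an inhibitor of DNA binding, by 1.52 on the log2 scale. MYC, a growth-promoting transcription factor gene, fell from 1495 and 1451 to 746 and 735, a log2 change of −0.98 (SE 0.06, limma adjusted p = 9.18e-06), and it kept its call in all 15 alternatives. KLF4, a zinc finger factor gene, fell from 691 and 603 to 363 and 344. The fall of its relative KLF6 was smaller, at −0.34, and it was lost without control siRNA replicate 1 or 2 (limma adjusted p = 0.0673 and 0.0583) and turned to 0.02 under centring on the housekeeping median. EGR1, usually induced together with FOS, read 37.4 and 41.3 against 43.5 and 41.7 and did not pass (named after its values were seen). Fewer of these genes passed whichever array was left out, as did fewer of all genes.

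**Figure D4:**
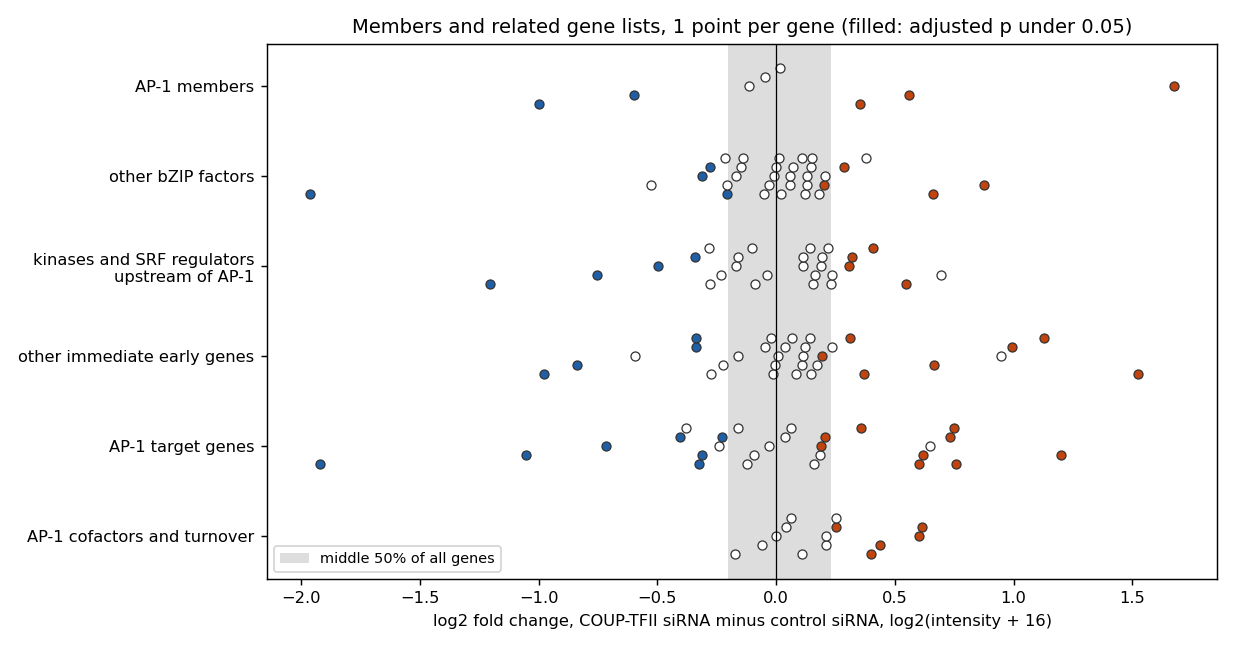
Log2 fold change of the 8 AP-1 genes and of the measured genes of 5 related lists, 1 point per gene, filled where the adjusted p over all genes was under 0.05; the grey band holds the middle 50% of all genes, from −0.20 to 0.23. Filled points lie on both sides of 0 in each row except that of cofactors and turnover, where the 5 filled points are all higher.

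Of 27 measured genes described as AP-1 targets, 16 passed (59.3%, against 23.0% of all genes), 9 higher and 7 lower, with a median of 0.04. Centring on the housekeeping median gave 17 higher and 3 lower, where 8722 of all 19775 genes were higher and 781 lower. In the fit of the 9888 brighter genes, where 2998 rose and 2322 fell, the targets held 10 rises and 8 falls among 23. HMOX1, which encodes heme oxygenase 1, rose from 86.0 and 90.4 to 215 and 232, a log2 change of 1.20 (SE 0.13, limma adjusted p = 0.0002). HMGA1, an architectural chromatin protein gene, rose by 0.76 and ITGAV, the integrin alpha-V subunit gene, by 0.75. CXCL8 and IL6, cytokine genes with AP-1 and NF-kappaB sites, fell by 1.92 and 1.06 on the log2 scale. CD44, a hyaluronan receptor gene, fell from 4183 and 3914 to 2532 and 2385 on its brightest probe set, but 1 of its 13 probe sets passed as higher and 2 as lower, and their average was at 0.03 (limma adjusted p = 0.868). MMP1, a collagenase gene with a well known TPA response element, read 1913 and 1692 against 1857 and 1530, with overlapping groups, and was named after its values were seen. With 1 array left out, fewer of the targets and fewer of all genes passed. Among cofactors and turnover factors 5 of 14 rose and none fell (35.7%, against 23.0% of all genes; median 0.21; 9 did not pass). They included TBL1XR1, a corepressor subunit gene, at 0.60 and DET1, part of a ubiquitin ligase for JUN, at 0.61. The call for DET1 was lost whichever array was left out (limma adjusted p = 0.0757 to 0.113), and with its probe sets averaged it was at 0.26 (limma adjusted p = 0.367). Without any 1 of the arrays, fewer cofactors and turnover factors, and fewer of all genes, passed. Centred on the housekeeping median, 11 of them rose and 0 fell, where 8722 of all 19775 genes rose and 781 fell. In the fit of the 9888 brighter genes, where 2998 rose and 2322 fell, 6 of 12 cofactors and turnover factors rose and 0 fell. These lists are short and were not compared with other lists.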

How the data were processed

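The authors deposited linear intensities per probe set from 1-colour Affymetrix arrays, with biotin labelling by a 3′ IVT kit per the labels' protocols. How probes were summarised, corrected and normalized is not given in the sources used here. Array medians differed by at most 3.66%, so nothing was rescaled.

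Intensities were used as log2(value + 16). Probe sets were named from the array's platform annotation with symbols updated through RefSeq (GRCh38.p14). For each gene the brightest probe set assigned to it alone was used, avoiding _x_at ones where possible. Groups were compared with limma 3.58.1 in R 4.3.3 (lmFit, eBayes with an intensity trend, no replicate block), adjusted by Benjamini-Hochberg over 19775 genes and, separately, 54613 non-control probe sets, with 2 residual degrees of freedom. The test was also run on simulated data with independent noise in each feature, so effects shared by a whole array were absent. There it recovered 38.8% of log2 changes of 0.5 for genes and 26.9% for probe sets. All changes of 2 (100%) were recovered. Of 162 calls for genes 11 were false, and of 136 for probe sets 13. The number of arrays limits the precision.

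The members and lists were chosen with earlier results of these data known. Named were all members, up to 3 rises and 3 falls per list (past the threshold, groups not overlapping, above median brightness; a selection is printed) and the 3 nearest profiles of 2 members. Alternatives covered the block, normalization, centring, pseudocounts of 1 and 64, dim features, prior variance, threshold, probe set choice and each array left out. List members on probe sets assigned to several genes or unnamed were not analysed here. Figures used matplotlib 3.10.9.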

Additional observations from a re-analysis of the deposited data

How the results depend on the processing

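With 1 prior variance for all features, 754 genes were higher and 814 lower, 1 member gene was higher, and of the member probe sets 1 was higher and 0 lower. At a threshold of 0.01 there were 1450 genes higher and 1318 lower, and 3 member probe sets lower. Averaging probe sets left 1631 genes higher. Centring on the median of the housekeeping genes gave 8722 higher and 781 lower, and 2 member probe sets lower. With 1 array left out, 882 to 1222 genes were higher and 886 to 1370 lower, 1 to 3 member genes were higher and 2 lower, and 1 to 2 member probe sets were higher and 0 to 2 lower. How many of all probe sets passed under these settings is not given here. The counts of member probe sets therefore have no share beside them. The cause of these shifts was not tested.

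Of the genes and probe sets named that passed, or that passed under an alternative, these changed direction. Under centring on the housekeeping median, the log2 fold changes of FOSL2 and its probe set 225262_at became 0.31, 228188_at of FOSL2 became 0.0132, 201464_x_at of JUN became 0.0232, ATF7 0.0481, CREB3 0.0799 and KLF6 0.0226. With probe sets averaged, JUND became −0.0336, MRTFB −0.00889 and CD44 0.0264. Members that did not pass also changed sign: FOS ran from −0.40 to 0.24 over its alternatives, FOSB from −0.10 to 0.38, FOSL2 was at 0.03 without COUP-TFII siRNA replicate 2, and among probe sets 213281_at from −0.36 to 0.11, 203751_x_at from −0.28 to 0.32, 218881_s_at from −0.34 to 0.11 and 205409_at from −0.19 to 0.40.

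The labels do not say whether arrays of the same replicate number shared a transfection. Same-numbered arrays deviated from their group means with a correlation of 0.0165 across genes, which cannot settle this with 2 arrays a group. With a replicate block 2849 genes were higher and 2277 lower, against 2519 and 2039 without it. With a replicate block, 3 members were higher and 2 lower, as without it (limma adjusted p for JUNB = 5.73e-07 and for JUN = 0.000211). FOS and FOSB are limited by brightness, near the floor on every array.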
